A study of Mus musculus with 2 samples.

Results

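Cytosolic ribosomal proteins are the protein part of the ribosome, and their genes were followed here in a mouse macrophage line treated with ligands of the nuclear receptors LXR and RXR. A gene was a member if its probe set carried a single platform symbol starting with Rpl or Rps and a number, or Rplp0, Rplp1, Rplp2 or Rpsa, with S6 kinases, -ps symbols and predicted pseudogenes left out. This gave 50 genes of the 18193 with a probe set of 1 symbol, and 106 of 34945 probe sets. The large subunit had 26 genes with 48 probe sets and the small subunit 24 genes with 58. The rule used names and no measured value. It also took in Rps19bp1, whose product binds Rps19 and is not a ribosomal protein, and the paralogs Rpl22l1, Rpl39l, Rps27l, Rpl3l, Rpl7l1 and Rps4l.

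Both cultures were RAW264.7 cells, a line transformed by Abelson leukaemia virus, into which murine LXRα had been introduced stably by chemical transfection. One culture received the solvent DMSO for 24 h. The other received the LXR agonist GW3965 at 1 µM together with the RXR agonist LG268 at 100 nM for 24 h. Both express the introduced receptor, neither ligand was given alone, and the sources used here do not say how many clones make up the line. Each condition had 1 Affymetrix array, so there is no replicate error, no test was possible, and "higher" and "lower" describe these 2 arrays.

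A ribosome joins ribosomal RNA with one copy of most of its proteins in a large and a small subunit. The small subunit reads the messenger RNA and the large subunit joins amino acids. Ribosomal protein genes are housekeeping genes, and several of them serve as reference genes in expression studies. Their messenger RNAs typically start with a C followed by a run of C and T, the 5′ terminal oligopyrimidine (TOP) motif, through which mTOR signalling controls their translation. Signals on these arrays measure the amount of messenger RNA and not translation.

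To show the motif, the DNA around the annotated start was taken from the RefSeq promoter table (GRCm38.p6), which held 44 of the 50 members. The first 6 sequences below have the motif exactly at the start, Rpl7a has the longest run near it, and Rps15, Rpl11 and Rpl37 have short runs only. Each holds 15 bases before the start and 15 from it on, and capitals mark its longest run of C and T.
Rpl35: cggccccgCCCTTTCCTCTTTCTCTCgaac
Rpl38: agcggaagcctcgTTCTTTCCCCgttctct
Rplp2: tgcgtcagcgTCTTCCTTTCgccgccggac
Rps6: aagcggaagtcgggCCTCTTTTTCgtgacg
Rps10: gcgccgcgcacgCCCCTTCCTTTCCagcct
Rps18: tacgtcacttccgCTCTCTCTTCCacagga
Rpl7a: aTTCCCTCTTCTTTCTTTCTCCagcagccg
Rps15: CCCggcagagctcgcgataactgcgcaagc
Rpl11: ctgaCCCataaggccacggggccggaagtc
Rpl37: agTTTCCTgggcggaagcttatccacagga

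On GRCm38.p6 the large-subunit windows lie at chr2:39005117-39005146 on the minus strand (Rpl35), chr11:114668565-114668594 on the plus strand (Rpl38), chr7:141447636-141447665 on the plus strand (Rplp2), chr2:26910792-26910821 on the plus strand (Rpl7a), chr4:136053379-136053408 on the minus strand (Rpl11) and chr15:5116598-5116627 on the plus strand (Rpl37). The small-subunit windows lie at chr4:86857353-86857382 on the minus strand (Rps6), chr17:27635230-27635259 on the minus strand (Rps10), chr17:33955651-33955680 on the minus strand (Rps18) and chr10:80292416-80292445 on the plus strand (Rps15). Each window spans the annotated transcription start of its gene, with the second part in the first exon.

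A C at the annotated start followed by at least 4 bases that are C or T was found in 8 of 44 member genes (18.2%), against 813 of 27025 genes in the whole table (3.01%). A run of at least 8 such bases within 15 bases of the start was found in 19 members (43.2%) and in 13.9% of all genes. Mitochondrial ribosomal proteins, which are made in the cytosol for another ribosome, had the exact motif in 0 of 69 genes and the longer run in 9 (13.0%). The letters CCGGAAG, the core bound by ETS-family factors, or CTTCCGG on the other strand, were present in the 300 bases of 21 members (47.7%) and of 9.93% of all genes. Mitochondrial ribosomal proteins had this motif in 26 genes (37.7%). These matches describe letters in the annotated windows, and an annotated start can lie some bases from the one used in these cells.

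Of the 50 members, 46 had a signal above the floor on both arrays. The floor, 276 signal units, was the median of all probe sets other than controls, and a gene is represented by its brightest probe set. The remaining 4 were at or below the floor on both arrays, so no ratio is given for them. Rpl3l, the heart and skeletal muscle paralog of Rpl3, had signals of 75.04 (DMSO) and 51.1 (ligands). Rpl39l, a testis-enriched paralog, had 62.8 and 36.7, Rps4l had 15.02 and 12.6, and the only single-symbol probe set of Rps16 had 13.9 and 20.4. A probe set for Rps16 that it shares with a pseudogene and another locus had 180556 and 191492, so the dim value belongs to that probe set and does not describe the gene.

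By their brightest probe sets, nearly all ribosomal protein genes had almost the same signal on both arrays. Of the 46 measured, 34 had a mean signal above 100000. Other gene probe sets at such signals also spread less, with an SD of 0.16, against 0.40 between 1000 and 10000. The part of signal level in the small differences was not tested. The median log2 ratio of ligands over DMSO was 0.079 over the 46 measured members, with quartiles of 0.028 and 0.12. Of these members, 39 had a ratio above 0 (84.8%), where 46.2% of all measured genes did, and after quantile normalization of the arrays the members' split of 39 above and 7 below 0 became 28 above and 18 not above. The brighter signal exceeded the dimmer by at least 25% in 3 members, 2 higher and 1 lower with the ligands (6.52%), and in 31.2% of the 11077 measured genes. At a mean signal above 100000 it did so in 0 of 34 members and in 5 of 71 other genes. Only 1 member was at least 1.5-fold apart, against 11.1% of measured genes, and none was at least 2-fold apart, against 2.45%. The median over all measured genes was -0.027.

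**Figure D1:**
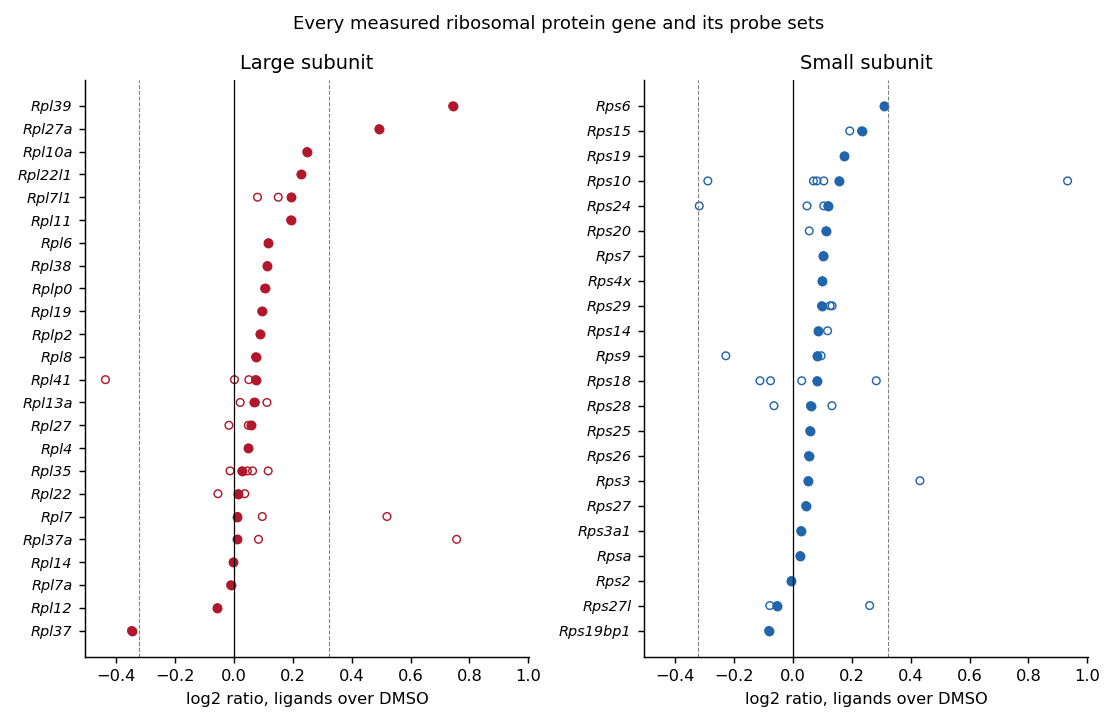
Log2 ratio of ligands over DMSO (x axis) for each measured gene (rows), large subunit left and small subunit right. Filled points are the brightest probe set, open points the other probe sets with both signals above the floor, and dashed lines mark a 25% difference; most filled points sit close together just above 0, and the filled points of Rpl39, Rpl27a and Rpl37 lie outside the dashed lines.

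The subunits did not separate. The 24 measured large-subunit members had a median log2 ratio of 0.074, with 20 above 0 and a range of -0.35 to 0.74. The 22 small-subunit members had a median of 0.083, with 19 above 0 and a range of -0.081 to 0.31. All 3 members at least 25% apart were in the large subunit. After quantile normalization the medians were 0.012 and 0.018.

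The stalk of the large subunit recruits the translation factors that hydrolyse GTP. Rplp0, its base and a common reference gene, had a signal of 140703 on the DMSO array and 151355 after ligand treatment, a log2 ratio of 0.11. Rplp2, one of the acidic proteins that bind Rplp0, had 195862 and 208459, a log2 ratio of 0.090. The probe set for Rplp1, the partner of Rplp2, is shared with a predicted gene and is no member, and it had 173555 and 183572. The stalk signals were thus 1.06-fold to 1.08-fold higher with the ligands by the probe sets that name them alone.

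Rpl11 binds the ubiquitin ligase Mdm2 when ribosome assembly fails, together with Rpl5 and the 5S ribosomal RNA. Rpl11 had signals of 126577 and 144759, 1.14-fold higher with the ligands. A dim probe set that Rpl11 shares with other symbols was 1.47-fold higher (663 and 973). Rpl5, measured only by probe sets shared with a pseudogene, had 188207 and 198034 on the brightest of them, a log2 ratio of 0.073. Its dimmer probe sets were lower with the ligands, at -0.29 (5254 and 4295) and -0.32 (2243 and 1800). Other large-subunit proteins around the tunnel and the surface had similar signals on both arrays by their brightest probe sets. Rpl4, which lines the exit tunnel, had 208115 and 215498, and Rpl38, a small surface protein known for its part in the translation of Hox messenger RNAs, had 187014 and 202403. Rpl13a, used as a reference gene and known in myeloid cells as part of an inhibitor of inflammatory messenger RNAs, had 169724 and 178097, and its 4 single-symbol probe sets ranged from 0.022 to 0.11 on the log2 scale. A bright probe set that it shares with other symbols had 176420 and 162684, a log2 ratio of -0.12. A dim shared one was at least 2.21-fold higher (245 and 611).

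Taking the brightest probe set of each gene, the highest large-subunit ratio at a mean signal above 100000 was that of Rpl10a, a protein of the L1 stalk, at 165196 without and 196274 with the ligands (1.19-fold). Rpl22l1, the paralog of Rpl22, was 1.17-fold higher (61611 and 72203), while Rpl22 itself had 169348 and 171132. Rpl22l1 thus had a log2 ratio of 0.23 and Rpl22 one of 0.015, each from 1 array per condition. Rpl7l1, a paralog of Rpl7 that acts in ribosome assembly, had 11851 and 13575, with 0.081 to 0.20 over 3 probe sets, against 161203 and 162658 for Rpl7. By the same measure the lowest ratios in this bright range were those of Rpl7a (207219 and 205788) and Rpl37a (178477 and 180029), each of which differed by 1.01-fold between arrays. At lower signal, Rpl12, a protein of the stalk base, had 3991 and 3841 and Rpl14 had 4260 and 4257. The brighter probe sets that these genes share with other symbols differed from this. Those of Rpl12 had log2 ratios of 0.087 (191945 and 203908) and 0.13 (140422 and 153776). Those of Rpl14 ranged from -0.15 to -0.032, with 156595 and 144340 on the brightest.

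The 3 members at least 25% apart were each represented by a probe set of modest signal. Rpl39, a small protein of the exit tunnel, had 1585 with DMSO and 2653 with the ligands, 1.67-fold higher. The probe set it shares with a predicted gene had 176949 and 180532, a log2 ratio of 0.029. Rpl27a had 1726 and 2430, 1.41-fold higher, against 172182 and 184279 (0.098) for the probe set it shares with several predicted genes. Rpl37, a zinc-binding protein, had 13479 and 10601, 1.27-fold lower, against 141528 and 148670 (0.071) for the brightest probe set it shares with a retrotransposed copy. The other shared probe sets of Rpl37 were 1.12-fold higher (120502 and 134638) and 1.15-fold lower (1622 and 1407).

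In the small subunit, Rps6 is the substrate of the S6 kinases downstream of mTOR. Its single-symbol probe set had 2119 and 2629, 1.24-fold higher and the highest ratio of the subunit. The brightest of 9 probe sets that Rps6 shares with its pseudogene had 211695 and 216555, a log2 ratio of 0.033, and the 9 ranged from -0.51 to 0.10. Rps15, which sits near the decoding centre, was 1.18-fold higher (128559 and 151186), and its second probe set was 0.19 on the log2 scale. Rps19, the protein most often mutated in Diamond-Blackfan anaemia, was 1.13-fold higher (139332 and 157390). A dim probe set that Rps19 shares with other symbols had a log2 ratio of -0.27 (349 and 290). Rps10, at the messenger RNA entry, had 161143 and 179742 on its brightest probe set. Rps24 had 128242 and 139375, and the log2 ratios of its 5 measured probe sets lay between -0.32 and 0.12.

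Other small-subunit proteins were nearer to 0 by their brightest single-symbol probe sets. Rpsa, also known as the laminin receptor precursor, had 195653 and 199117, Rps3a1 had 191047 and 194758, and Rps2 had 182357 and 181799. Rps3, which lines the entry of the messenger RNA, had 162210 and 168209, while a dimmer probe set of it was 1.35-fold higher (4415 and 5956). The reference gene Rps18 had 172164 and 182330, a log2 ratio of 0.083, with -0.11 to 0.28 over the 5 probe sets whose signals both passed the floor. Another probe set of Rps18, at 275 with DMSO and 368 with the ligands, was at least 1.33-fold higher. Rps4x, encoded on the X chromosome, had 149295 and 160075.

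By their brightest single-symbol probe sets, the small-subunit members with ratios below 0 were Rps2 and 2 genes that are not standard ribosomal proteins. Rps2 was at -0.0044, but its probe sets shared with other symbols had 0.12 (201271 and 218481) and 0.019 (173540 and 175800). Rps27l, a p53-responsive paralog of Rps27, had 68582 and 66119, and its 3 probe sets ranged from -0.078 to 0.26. Rps27 had 2900 and 2991 on its single-symbol probe set, and 141697 and 153944 on one it shares with a retrotransposed copy. Rps19bp1 had 7206 and 6812, a log2 ratio of -0.081. With Rps19bp1 and the like-named paralogs left out, 37 of 42 members were above 0, where 46.2% of all measured genes were. The medians were then 0.072 for the large and 0.086 for the small subunit.

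Some ribosomal protein genes had probe sets that disagreed. Of the 6 probe sets of Rps10, 4 had log2 ratios of 0.070 to 0.16, one was at 0.93 (63860 and 121892) and one at -0.29 (1063 and 871). Rpl37a had 0.76 on one of its 3 probe sets (5013 and 8468) and 0.012 and 0.084 on the others. The 3 probe sets of Rpl7 had 0.013, 0.097 and 0.52, the last from signals of 23739 and 34044. Rpl41, which encodes a very short basic protein, had -0.44 on one probe set (3685 and 2726) and 0.0026 to 0.074 on the other 3. A dim probe set of Rpl35 was at least 1.35-fold lower (373 and 187), while the other 5 lay between -0.012 and 0.12. In members, the brightest and second brightest probe sets differed by a median of 0.051 (20 genes). Over the genes of the array the median was 0.23 (4866 genes). The SD of a probe set estimated from such pairs was 0.10 for members and 0.28 for the array. These pairs leave out the disagreeing probe sets named above. Members and the genes of the array were not matched for signal here.

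The narrowest spread was at the highest signals. The 58 member probe sets with a mean signal above 100000 had a median log2 ratio of 0.083 with an SD of 0.063, and 53 were above 0 (47.3% of all measured gene probe sets were) while none was 25% apart (35.4%). The 8 member probe sets between 50000 and 100000 had an SD of 0.32, with the Rps10 probe set at 0.93 among them. The 16 member probe sets between 1000 and 10000 had a median of 0.024 with an SD of 0.35. Of these 16, 5 were at least 25% apart, as were 3228 of 10210 probe sets of other genes in that range. Probe sets of other genes had an SD of 0.16 over 89 probe sets above 100000 and 0.40 over 10210 between 1000 and 10000. Of the 89 above 100000, 63 had ratios above 0 (70.8%), with a median of 0.056, and 7 were at least 25% apart. The control probe sets for Actb had 0.053 to 0.10 and those for Gapdh 0.0080 to 0.084. Counted by gene, 32 of 34 bright members and 47 of 71 other bright genes were above 0, with medians of 0.083 and 0.049, and after quantile normalization 21 of 34 and 24 of 71, with medians of 0.013 and -0.026. The small positive shift of the ribosomal proteins was thus shared in part by other bright probe sets, and the part of signal level in it was not tested.

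**Figure D2:**
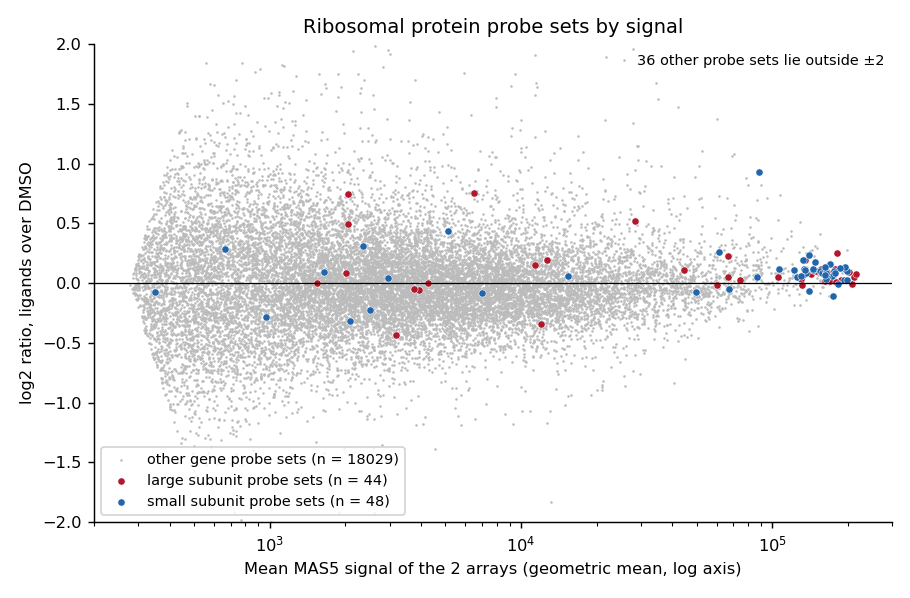
Log2 ratio of ligands over DMSO (y axis) against the mean MAS5 signal of both arrays (x axis, log scale) for probe sets with both signals above the floor. Red and blue points are the 44 large-subunit and 48 small-subunit probe sets and grey points other gene probe sets, 36 of which lie outside the axis; the ribosomal cluster at the right edge is narrow and just above 0, and the dimmer ribosomal points scatter more widely.

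**Figure D3:**
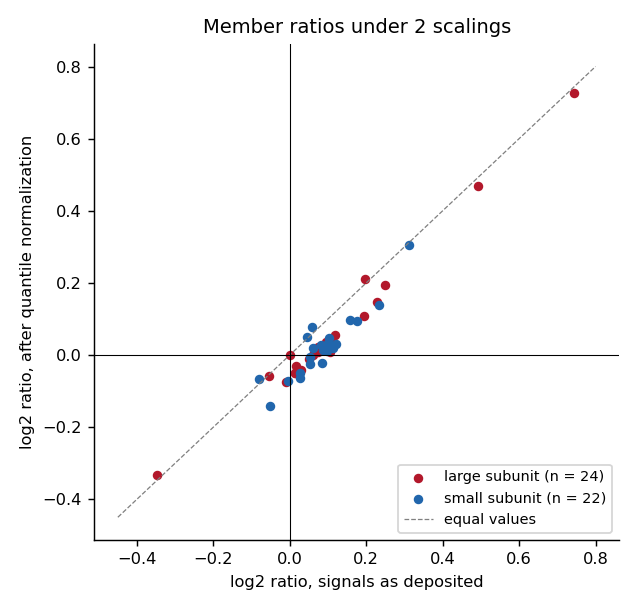
Log2 ratio of each measured member with signals as deposited (x axis) and after quantile normalization (y axis), large subunit red and small subunit blue, with the dashed line marking equal values. Most points fall below the line near the origin, so that 39 members are above 0 on the x axis and 28 on the y axis, while Rpl39 and Rpl37 keep their places.

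Many ribosomal protein probe sets can detect more than 1 transcript. Of the 106, 40 had names ending in _x_at (37.7%, against 5.83% of all gene probe sets) and 28 in _a_at (26.4%, against 11.7%). Those ending in _x_at had a median log2 ratio of 0.069, _a_at 0.090 and plain _at 0.081, over probe sets with both signals above the floor. A further 110 probe sets named a ribosomal protein beside other symbols, such as pseudogenes and predicted genes, and they were the sole probe sets for 28 symbols such as Rpl3, Rpl5, Rpl10 and Rpl32. On the brightest of them Rpl3, next to the peptidyl transferase centre, had 193840 and 213107, and Rpl10, which completes that centre late in assembly, had 176891 and 183341. Rpl32, a reference gene, had 131731 and 142489. The brightest probe set that names both Rpl36a and its paralog Rpl36al had 125869 and 129298, while Rps27a and Rpl10l were not analysed here. Of the 75 such probe sets with a mean signal above 100000, 64 had ratios above 0, with a median of 0.053 and a range of -0.15 to 0.21. Among single-symbol probe sets of other genes in that range, 63 of 89 were above 0 (70.8%). With the shared probe sets included, 69 of 74 genes were above 0 (46.2% of all measured genes were) and none was 25% apart (31.2%).

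Members with and without the motif at the start had overlapping ratios. The 8 measured members with the exact TOP motif had a median log2 ratio of 0.086 and a range of -0.00085 to 0.31, and the 33 without it 0.069 and -0.35 to 0.74. Rpl38 and Rplp2, whose start sequences above begin with the motif, had 0.11 and 0.090, and Rps15 and Rpl11, whose starts have short runs, had 0.23 and 0.19. Members with CCGGAAG had a median of 0.086 (20 genes) and those without it 0.061 (21 genes).

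A list of other genes known for TOP messages, together with translation elongation genes, had ratios near those of the ribosomal proteins. It also holds genes outside the translation machinery, such as Vim, an intermediate filament, and the non-coding RNAs Gas5 and Snhg8, which had log2 ratios of -0.19, -0.11 and -0.061. Of 26 measured, 18 had ratios above 0 (46.2% of all measured genes did) and the median log2 ratio was 0.060. After quantile normalization the median was -0.0084 with 12 above 0. Eef1a1, the elongation factor that brings transfer RNA, had 211289 and 215848, Eef2, the translocase, 117897 and 123508, and Pabpc1, the poly(A) binding protein, 155940 and 161328. The largest differences were in Eif4a1, an initiation helicase (103646 and 136395, 1.32-fold higher), Eef1d (47076 and 56556) and Eif3l (45958 and 55039). Fau, whose product is processed to the small-subunit protein eS30 and which the name rule does not reach, had 136417 and 166708, 1.22-fold higher. Translation initiation factors had a median of -0.028 with 10 of 23 above 0, and the largest differences were in Eif2b5 (0.37), Eif6 (0.31) and Eif3a (-0.24). Mitochondrial ribosomal proteins had a median of -0.0033 with 37 of 76 above 0, and Mrpl20, Mrps34 and Mrpl12 had log2 ratios of 0.60, 0.46 and 0.44.

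Factors that build ribosomes had lower ratios than the proteins they assemble. Of 70 measured ribosome biogenesis factors, 55 had ratios below 0 (53.8% of measured genes did), with a median log2 ratio of -0.17 (after quantile normalization, 52 below 0 and -0.17). By the same 25% rule 14 of them were lower, as 15.5% of measured genes were, and 1 was higher, against 15.7%. Surf6, a nucleolar protein, had 5423 and 2812, and Nmd3, the export adaptor of the large subunit, 12457 and 8472. Nop16 went the other way, 3.19-fold higher (6424 and 20521). Chaperones and importins of ribosomal proteins had a median of -0.11, with 7 of 9 below 0, among them Tsr2, the chaperone of Rps26 (4834 and 4031), Ipo7, which imports ribosomal proteins (58210 and 51603), and Tnpo1, another importin (12232 and 10147). The difference between these lists and the ribosomal proteins has no test, since each rests on the same pair of arrays.

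**Figure D4:**
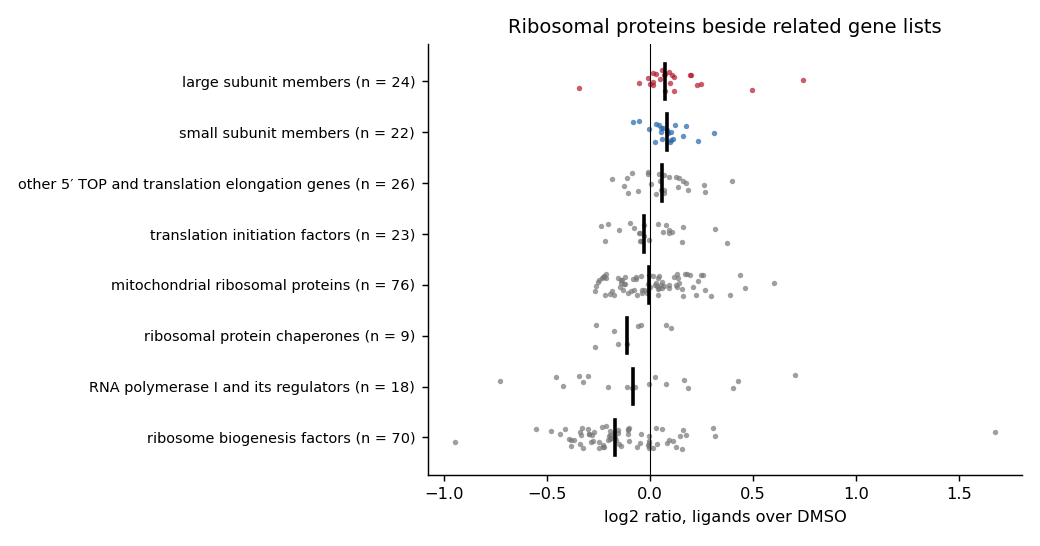
Log2 ratio of ligands over DMSO (x axis) for each measured gene of the ribosomal protein groups and of 6 related lists (rows, with n), with a black bar at each median. The medians run from 0.083 for the small subunit to -0.17 for ribosome biogenesis factors.

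RNA polymerase I makes the ribosomal RNA precursor. Of 18 measured genes for it and its regulators, 7 had ratios above 0 (46.2% of all measured genes did) and the median was -0.081. Rrn3, its initiation factor, had 5548 and 3349, 1.66-fold lower, Ubtf, which binds ribosomal DNA, 5968 and 7881, and Max, the partner of Myc, 5114 and 8331. Mycn, a regulator of ribosomal protein and biogenesis genes, had 193135 and 203503, and Myc was at least 1.37-fold lower (379, and below the floor with the ligands). The 3 control probe sets for 18S ribosomal RNA had log2 ratios of 0.47 to 0.68, from 1381 to 2005 with DMSO and from 2207 to 2834 with the ligands. Labelling starts from poly(A) tails in the standard protocol, so these controls do not measure the amount of ribosomes.

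Of 24 measured genes of mTOR and S6 kinase signalling, 12 had ratios above and 12 below 0, with a median of -0.00033. Of all measured genes, 46.2% were above 0. Mtor had 7604 and 6282 and Rptor, its partner in the complex that controls TOP messages, 3239 and 2283. Larp1, which binds the TOP motif, had 29163 and 22814, 1.28-fold lower. Eef2k, the kinase that inhibits Eef2, had 912 and 1713, 1.88-fold higher, and Pdcd4, an inhibitor of Eif4a1 that S6 kinase marks for decay, had 3057 and 4850. These were the only 2 of the 24 at least 1.5-fold apart, where 11.1% of measured genes were. Sesn2, which senses amino acids for mTOR and is also on the p53 list, had 3118 and 2148. Of 9 measured genes that are targets or regulators of p53, a list without p53 itself, 5 had ratios above 0. Sesn1 was at 7813 and 11076, Phlda3 at 1605 and 1237, Mdm2 at 6078 and 7006 and Cdkn1a, the cell cycle inhibitor, at 38333 and 30628.

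All 11 macrophage markers were above the floor on both arrays, Csf1r at 127050 and 132072 and Cd68 at 83652 and 103137. Of them, 6 had ratios above 0 (46.2% of all measured genes did), led by Mpeg1 (22120 and 45001, 2.03-fold higher), Fcgr3 (1.82-fold) and Fcgr1 (1.53-fold). The other 5 had ratios below 0, from -0.010 for Cd14 to -0.27 for Ptprc, with Itgam at -0.21 and Adgre1 at -0.15. None of 11 fibroblast, endothelial and epithelial markers was above it on either array. Of 8 lymphoid markers 1 was, Cd8a at 411 and 182, and of 8 granulocyte and mast cell markers 4 were, each on 1 array, the highest being Prtn3 at 240 and 923, then Elane at 200 and 334 and Mpo at 18.3 and 302. The part of other cell types in the ribosomal protein values was not tested.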

How the data were processed

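RNA from RAW264.7 cells with introduced LXRα was measured on 2 Affymetrix arrays, 1 with DMSO and 1 with GW3965 and LG268. The deposited values are linear intensities, 1 for each of 45101 probe sets, computed by MAS5 (per the submitters' processing notes, with no version stated there). Both arrays had a 2% trimmed mean of 2500 and were used as deposited. Ratios are therefore relative to the other genes of the array, and a loss or gain of RNA per cell common to all genes stays invisible.

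Platform symbols named 34945 probe sets with 1 symbol; 932 with several, 9160 with none and 64 controls stayed out of gene counts. Signals below the floor were set to it before log2 ratios were taken, and a gene was measured if its brighter signal exceeded it. A signal below the floor on 1 array gives a bound, written as at least N-fold. The number of arrays limits the precision, and no p-value was computed. Files name no genome build, so gene coordinates are not given beyond those of the RefSeq sequences.

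The members and lists were chosen with earlier results of these data known. Named genes were the 5 highest and 5 lowest of each subunit, members at least 1.5-fold apart, a list of well-known members and paralog pairs, and up to 3 genes with the largest ratios in each of 13 lists; other genes were named after their values were seen. Alternatives were other floors, log2(signal + 32), quantile normalization, centring, other choices of probe sets and the rule without paralogs. The functions were tested on simulated data. Python 3.11.15, numpy 2.4.6, pandas 2.3.3 and matplotlib 3.10.9 were used.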

Additional observations from a re-analysis of the deposited data

How the results depend on the processing

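No paired analysis was possible because each condition had 1 array, and no replicate could be left out. The medians of both subunits stayed above 0 and moved by less than 0.1 on the log2 scale under all alternatives, from 0.012 to 0.10 for the large and from 0.018 to 0.11 for the small subunit; the lowest came from quantile normalization and the highest from centring on the median of all genes. The number of members above 0 was 39 of 46 as reported (84.8%). With 46 members measured, it fell to 28 after quantile normalization (60.9%, against 46.2% of all measured genes). It was 36 with the mean over probe sets and 42 after centring. Other alternatives measured another number of genes. Plain _at probe sets gave 16 of 22 above 0 (46.4% of all measured genes) and _x_at probe sets 15 of 19 (43.6%). Including probe sets of several symbols gave 69 of 74 (46.2%). The 3 members at least 25% apart became 1 with the floor at the 75th percentile, 5 without a floor and 1 with _x_at probe sets, and were 4 of 22 (18.2%, against 6.52% as reported) with plain _at probe sets. The 1 member at least 1.5-fold apart became 0 with that floor and with _x_at probe sets. With probe sets of several symbols, and with members above 100000 only, both chosen after seeing the data, the numbers 25% and 1.5-fold apart were 0. Signal limits the rest: probe sets at or below 100000 varied more than those above it.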
